A study of Capra hircus with 3 samples.

Results

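The cells described here are the PAX5 and MS4A1 cells of fetal goat gonad, selected by a rule on raw counts of unique molecular identifiers (UMIs, each standing for 1 captured RNA molecule). A cell was taken when PAX5, MS4A1, JCHAIN and CD79B together had at least 2 UMIs, with at least 2 of the 4 genes found. It also had to hold no VPREB1 UMI, fewer than 2 UMIs over CD3E, CD3D and CD3G and fewer than 5 UMIs of AMH. Barcodes needed at least 1000 UMIs and at most 20% of them from mitochondrial genes. The rule gave 78 cells of 20825 kept cells. The 4 rule genes were measured in the same cells, so their levels describe the choice and carry no test.

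The study ran droplet single-cell RNA sequencing on gonads of the domestic goat (Capra hircus), all labelled as male testis, at the stages E85, E105 and E125, where E stands for embryonic day. Each stage has a single library and no replicate. The labels give no treatment and no breed or genotype for any library, and they do not say how many fetuses stand behind one. Testes were digested with enzymes, and the suspension was filtered and loaded. The labels name no sort, so blood cells inside the organ and cells of the tissue could both enter.

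B cells are lymphocytes that make antibodies. Their precursors break and join immunoglobulin gene segments with the RAG1 and RAG2 recombinase, carry a surrogate light chain of which VPREB1 is a part, and depend on the factor PAX5 to hold the B cell fate. Cells that have finished this step carry the B cell receptor with its signalling chain CD79B and the membrane protein MS4A1 (CD20), signal through the kinases SYK, LYN and BTK, and present antigen on MHC class II. JCHAIN joins antibody units into multimers in plasma cells and is also known from early B lineage cells. In mice and humans the fetal liver and bone marrow are known sites of B cell formation. The sites in the fetal goat were not examined here.

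After filtering, 6376, 7124 and 7325 cells were kept at E85, E105 and E125, and the deposited barcodes had a median of 3320.5, 2608 and 3043.5 UMIs. The E125 library went against its label. AMH, the hormone of Sertoli cells, was at 31.6 CPM there (UMIs per 1000000 UMIs of the same cells), against 1401 and 3817 CPM at E85 and E105. ZP3, an egg coat gene, was at 2109 CPM, against 1.17 and 2.51. It is called the library labelled E125 below. Barcodes shared between libraries numbered 14, 13 and 9 for the 3 pairs, and no selected cell was among them.

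The selected cells were rare. They made up 38 of 6376 cells at E85 (0.596%, exact 95% interval 0.422 to 0.817), 36 of 7124 at E105 (0.505%, 0.354 to 0.699) and 4 of 7325 in the library labelled E125 (0.0546%, 0.0149 to 0.140). The intervals at E85 and E105 overlapped, and the interval of the library labelled E125 lay below both. All intervals here are Clopper-Pearson for shares and cover counting error only, so with 1 library per stage they do not test a stage. VPREB1 cells, selected by at least 2 VPREB1 UMIs, numbered 104, 66 and 17, and macrophages 110, 138 and 65. Cells with CD3 genes numbered 7, 22 and 1. The selected cells were small libraries, with medians of 2091.5, 1746.5 and 3988 UMIs, against 4844.5, 4272 and 11695 in the VPREB1 cells. Without VPREB1 cells that hold genes of another type, the median in the library labelled E125 was 4121.5 (8 cells).

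JCHAIN was the rule gene found most often, in 30 of 38 cells at E85, 35 of 36 at E105 and 4 of 4 in the library labelled E125, with up to 28 UMIs in 1 cell. PAX5 was found in 27, 24 and 2 cells and MS4A1 in 18, 14 and 3. CD79B was found in 10, 5 and 0. PAX5 with JCHAIN alone was the commonest pair, in 36 of 78 cells. PAX5 and MS4A1 occurred together in 12 cells, PAX5 without MS4A1 in 41 and MS4A1 without PAX5 in 23. The rule fixes part of this pattern, because a cell needs only 2 of the 4 genes to enter.

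Near the threshold, 8 cells had a rule sum of exactly 2 and 8 a sum of 3, and the other 62 had at least 4. Just outside, 108 cells had at least 2 UMIs in 1 rule gene alone. JCHAIN was that gene in 87 of them, 29 of which came from the library labelled E125 at a median of 140915 UMIs per cell. Another 99 cells met every condition but VPREB1, 23 of them with a single VPREB1 UMI, so the border between the selected cells and the VPREB1 cells is a border in counts. Depth at that border was measured by thinning each VPREB1 cell to 1190 UMIs, a depth that most selected cells reach. VPREB1 was then at 0 in 5.83% of VPREB1 cells at E85 and 9.23% at E105, and 0 and 2 of these thinned cells met the whole rule. In the library labelled E125 it was at 0 in 6 of 17 (35.3%), and none met the rule.

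Not every selected cell held B lineage RNA alone. With lists of genes that mark other cell types, 13 of the 78 cells had at least 10 UMIs over a single list, 5 at E85 and 8 at E105. Germ cell genes were the list in 5 of them (2 and 3 cells), stroma genes in 6, macrophage genes in 1 (36 UMIs) and cytotoxic lymphocyte genes in 1 (38 UMIs). The 5 cells with germ cell genes had 15208 to 38753 UMIs, no BTK UMI and rule sums of 2 to 5. They held 37.7% of all UMIs of the selected cells. In 4 of those 5 cells the Sertoli list also reached 10 UMIs. Over all selected cells, DMRT1 gave 72 of the 103 Sertoli list UMIs at E85 and 92 of 122 at E105. AMH, limited by the rule, gave 6 and 3, and SOX9 gave 13 and 3. The label of B cells thus goes against the data in part of the 78 cells, which are called the selected cells here. The remaining 65 cells (33, 28 and 4) had a median of 1765 UMIs. Dendritic genes were not counted as another type, and 2 of these 65 cells reached 10 UMIs on that list. They were 1 cell at E85 (15 UMIs) and 1 at E105 (17 UMIs, rule sum 2). Levels and cell counts below are for all selected cells unless they are said to be without the 13 cells, an alternative added after the data were seen. Levels in CPM moved without them. At E85 and E105 they were then 435 and 650 for BTK, 836 and 1388 for CXCR4, 458 and 668 for HLA-DRA and 91.6 and 193 for RAG1. Doublet scores from Scrublet marked 0 of the 38 and 3 of the 36 cells as doublets, and the caller marked 0 of 7325 cells in the library labelled E125, where it did not work.

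**Figure D1:**
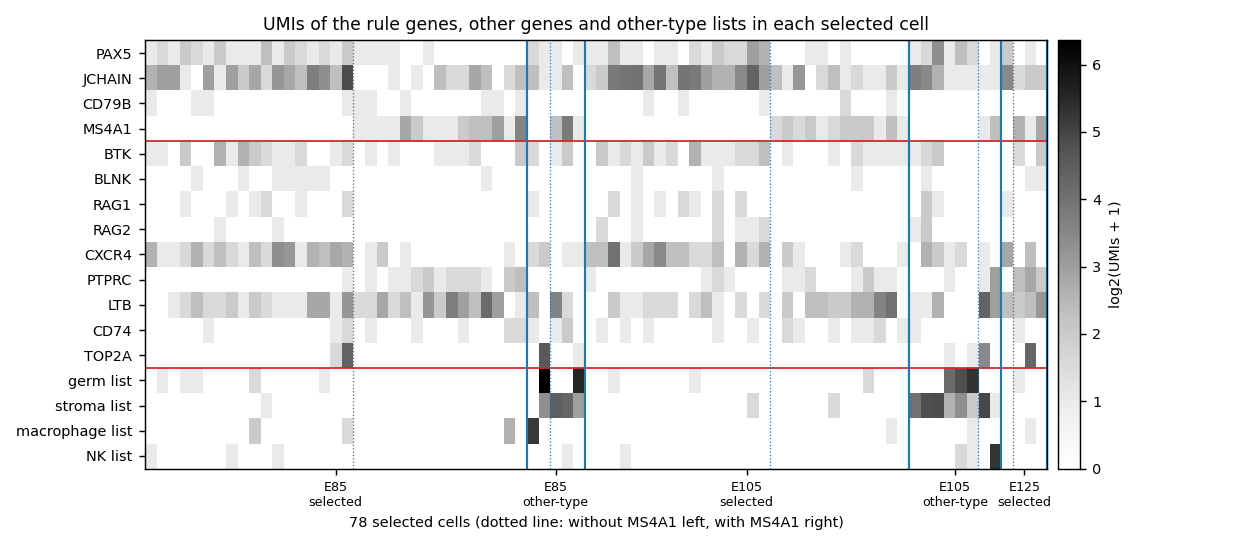
UMIs per selected cell, as log2(UMIs + 1), for the 4 rule genes (above the first red line), 9 other genes and 4 lists of other cell types (below the second red line). Each column is 1 of the 78 cells, grouped by library and by whether a list of another cell type reached 10 UMIs. The 13 other-type cells, 5 at E85 and 8 at E105, carry the dark cells of the list lines.

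BTK, the kinase behind the B cell receptor, was given as a marker of these cells but did not choose them. At E85 it was found in 23 of 38 selected cells (60.5%, 43.4 to 76.0) at a summed level of 248 CPM. At E105 it was found in 24 of 36 (66.7%, 49.0 to 81.4) at 294 CPM, and in the library labelled E125 in 2 of 4. BTK was found in 0 of 7 and 0 of 22 CD3 lymphocytes and in 2.01% and 1.55% of the kept cells outside the 4 classes, with medians of 3956 and 6239 UMIs for the CD3 lymphocytes. The share in the selected cells thus lay above that of deeper cells that should lack the gene. BTK was also found in 79.8% and 78.8% of VPREB1 cells and in 29.1% and 32.6% of macrophages. After thinning to 1190 UMIs the shares were 30.3% and 48.5% in the selected cells, 44.7% and 50.8% in VPREB1 cells and 20.2% and 14.7% in macrophages.

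Other genes of B cell receptor signalling were found in smaller shares. BLNK, the adaptor below SYK, was found in 8 and 4 selected cells at E85 and E105, SYK in 12 and 12 and LYN in 9 and 7. FCRLA, an intracellular Fc receptor-like protein of B cells, was found in 6 and 11. The inhibitory phosphatases were the most widespread after BTK, INPP5D in 19 and 19 cells and PTPN6 in 17 and 18. CD22 was found in 4 cells at E85, 0 of 36 at E105 (upper limit of the share 9.74%) and 1 in the library labelled E125. CD79A, the partner of CD79B, has no feature under its symbol. Of 22 listed receptor genes in the files, 19 had a UMI at E85 and 18 at E105.

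Among the transcription factors, TCF3, which opens the B cell programme, was found in 18 and 24 cells at 231 and 348 CPM. FOXO1, which drives the RAG genes, was found in 22 and 14 cells at 304 and 307 CPM. ETS1 was found in 14 and 12 cells, MEF2C in 13 and 9 and AFF3 in 11 and 10. MYB, a factor of early lymphoid precursors, was found in 6 and 6. Factors of activated and plasma cells were sparse or not detected. IRF4 was found in 0 and 1 cells and POU2AF1 in 0 and 1. PRDM1, the factor of plasma cell fate, was found in 2 and 5, and in 0 and 1 without the other-type cells, while the plasma cell receptors SDC1 and TNFRSF17 were found in none of the 78. The plasma cell list is therefore carried here by secretory genes that many cells use. HSP90B1, a chaperone, was found in 22 and 21 cells and SSR4, of the translocon, in 26 and 21.

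Recombination genes were present in part of the cells. RAG1 was found in 7 and 9 selected cells at 50.6 and 103 CPM, and RAG2 in 2 and 8. The kept cells outside the 4 classes had RAG1 in 0.376% and 0.117%. IL7R, the interleukin-7 receptor of lymphoid precursors, was found in 11 and 12 cells. DNTT, the enzyme that adds untemplated bases at the joins, was at 0 in all 78 cells, and VPREB3 was found in 2 and 3. For a share of 0 in 38 and 36 cells the upper limits are 9.25% and 9.74%.

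Genes of antigen presentation were found in part of the cells at both stages. HLA-DRA, a chain of MHC class II, was found in 19 of 38 and 18 of 36 cells at 253 and 301 CPM. HLA-DOB, which tunes peptide loading, was found in 17 and 16 cells, and CD74, the invariant chain, in 11 and 13. CD40, the receptor for T cell help, was found in 11 and 7. IFI30, a lysosomal thiol reductase that prepares antigen, was found in 19 and 15 cells at 579 and 178 CPM. The shares for CD40 and IFI30 in kept cells outside the 4 classes were 21.4% and 17.2% for CD40 and 15.9% and 23.7% for IFI30, where all kept cells had medians of 4905 and 3103 UMIs. The CD40 share of all selected cells, 28.9% and 19.4%, was thus close to that background. Its summed level was 152 against 50.4 CPM at E85 and, close to background, 61.5 against 55.3 at E105.

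Of the homing genes, CXCR4, the receptor that holds precursors in the marrow, was found in 26 and 25 cells at 450 and 622 CPM. LTB, a lymphotoxin that lymphocytes display, was found in 33 and 25 cells at 771 and 738 CPM, and in 4 of 4 cells of the library labelled E125. ITGA4, an integrin chain of lymphocyte adhesion, was found in 16 and 17. CCR7, a receptor for homing to lymph nodes, and TNFRSF13C, the receptor of the survival factor BAFF, were at 0 in all 78 cells. CXCR5, a receptor for homing to follicles, was found in 1. Of the fetal and B-1 type genes, LIN28B, an RNA-binding protein of fetal lymphopoiesis, was found in 11 and 15 cells and CD5 in none.

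A feature with no symbol was abundant in the selected cells. ENSCHIG00000009275 was found in 32 of 38, 31 of 36 and 3 of 4 selected cells at 7082, 6962 and 7921 CPM. It was also in VPREB1 cells, at 1328 and 1177 CPM at E85 and E105, and at 0 in CD3 lymphocytes. Macrophages had 0 and 9.98 CPM of it and the kept cells outside the classes 34.6 and 20.7. What it encodes is not given in the sources used here.

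**Figure D2:**
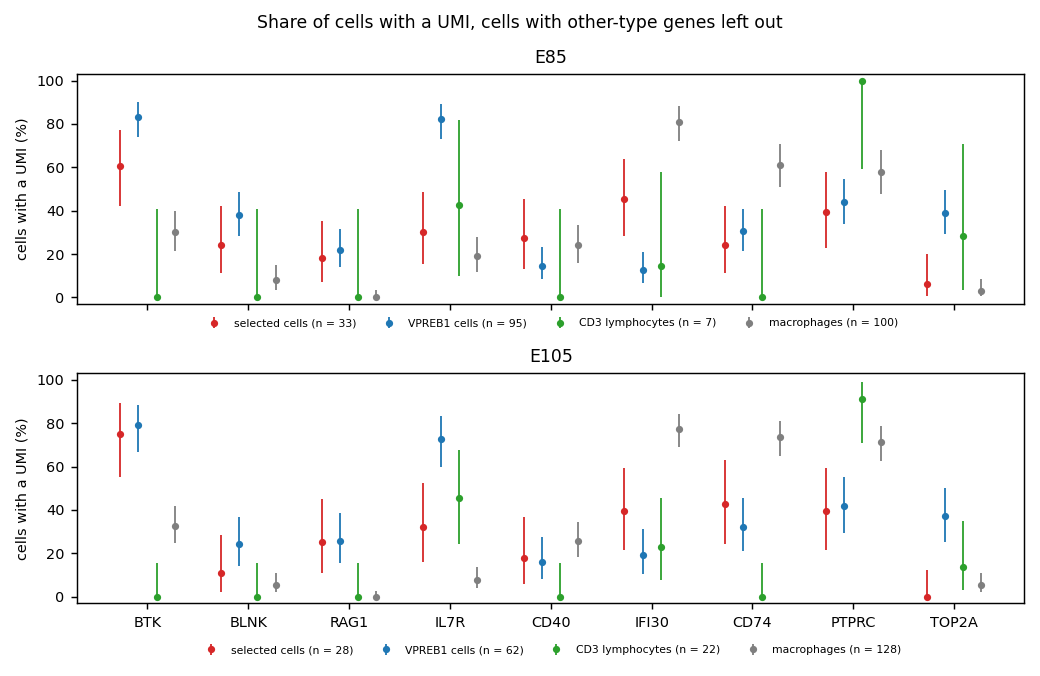
Share of cells with a UMI of 9 genes in the selected cells and the 3 comparison classes at E85 (upper panel) and E105 (lower panel), without cells that hold genes of another type. Points are percentages and bars exact 95% intervals of counting error. BTK sits at 60.6% and 75.0% in the selected cells and at 0 in CD3 lymphocytes, and PTPRC is highest in CD3 lymphocytes.

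The 4 cells of the library labelled E125 can be given one by one. The first had 2127 UMIs, with PAX5 at 3, JCHAIN at 10, CXCR4 at 6 and RAG1 at 1 UMI, and no BTK. The second had 3307 UMIs, with MS4A1 at 5, JCHAIN at 2, BTK at 2 and PTPRC at 4. The third, with 4669 UMIs, held PAX5 and MS4A1 at 1 UMI each, JCHAIN at 3, PTPRC at 6 and 18 UMIs of TOP2A, an enzyme of dividing cells. The fourth had 4794 UMIs, with MS4A1 at 6, JCHAIN at 3, BTK at 3 and CD22 at 2. RAG1 thus appeared only in the cell of these 4 that had no MS4A1 UMI. None of the 4 reached 10 UMIs on a list of another type.

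The selected cells differed among themselves along MS4A1. This division was chosen after the values were seen and is a description without a test. With the 13 other-type cells left out, 18 cells at E85 and 16 at E105 had no MS4A1 UMI, and 15 and 12 had at least 1. The cells with MS4A1 were deeper, with medians of 2725 and 2445.5 UMIs against 1656 and 1479.5. The part of this depth in the shares below was not tested. MS4A1 is also a rule gene, so the cells without it had to enter through PAX5, JCHAIN or CD79B.

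Recombination and precursor genes lay in the cells without MS4A1. RAG1 was found in 6 of 18 such cells at E85 (33.3%, 13.3 to 59.0) and 7 of 16 at E105 (43.8%, 19.8 to 70.1), and in 0 of 15 and 0 of 12 cells with MS4A1, whose upper limits are 21.8% and 26.5%. RAG2 was found in 2 and 6 cells without MS4A1 and 0 and 0 with it. IL7R was found in 10 and 9 cells without MS4A1 and in 0 and 0 with it. CXCR4 was found in 18 of 18 and 15 of 16 cells without MS4A1 and in 4 of 15 and 5 of 12 with it. These 4 genes had this order in both libraries. Over all selected cells, the 13 included, RAG1 was found in 7 of 20 and 9 of 22 cells without MS4A1 and in 0 of 18 and 0 of 14 with it.

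TCF3 and BTK were found in both groups, but more often in the cells without MS4A1, and AKAP12 lay mostly in those cells. TCF3 was found in 11 of 18 and 13 of 16 cells without MS4A1 and in 3 of 15 and 5 of 12 with it. For BTK the counts were 13 and 14 without and 7 and 7 with it. AKAP12, a scaffold protein for protein kinase A, was found in 12 and 14 cells without MS4A1 and in 2 and 1 with it. LTB was found in 16 and 11 cells without MS4A1 and 14 and 9 with it. FOXO1 was found in 11 cells without MS4A1 and 8 with it at E85, and in 8 and 1 at E105.

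A further set of genes, also chosen after their values were seen, lay mostly in the cells with MS4A1. CD40 was found in 9 of 15 cells with MS4A1 at E85 (60.0%, 32.3 to 83.7) and 5 of 12 at E105 (41.7%, 15.2 to 72.3), and in 0 of 18 and 0 of 16 without it. IFI30 was found in 14 of 15 and 9 of 12 cells with MS4A1 and in 1 and 2 without it. BANK1, a scaffold of B cell receptor signalling, was found in 7 and 6 cells with MS4A1 and 1 and 1 without it. PTPRC (CD45), the phosphatase of leukocyte surfaces, was found in 12 and 7 cells with MS4A1 and in 1 and 4 without it. PTPN6 was found in 12 and 10 cells with MS4A1 and 2 and 4 without it. PLAC8 and DERL3 were each found in 8 and 8 cells with MS4A1 and 1 and 2 without it. KLF2, a factor of lymphocyte quiescence and migration, was found in 10 and 11 against 5 and 6. Other genes of antigen presentation were spread over both groups. HLA-DRA was found in 10 and 9 cells with MS4A1 and 7 and 6 without it, HLA-DOB in 9 and 6 against 7 and 8, and CD74 in 5 and 7 against 3 and 5.

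**Figure D3:**
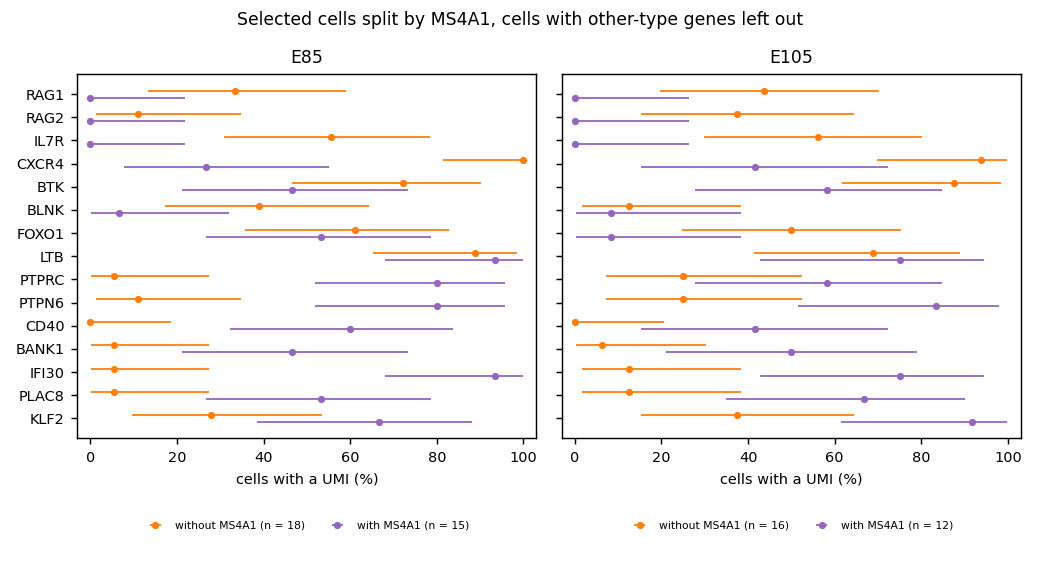
Share of selected cells with a UMI of 15 genes, split by MS4A1, at E85 (left) and E105 (right), without the 13 other-type cells. Points are percentages and bars exact 95% intervals of counting error. RAG1, RAG2 and IL7R are at 0 in the cells with MS4A1 in both libraries, and CD40 is at 0 in the cells without it.

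To compare the selected cells with other blood cells of the same libraries, UMIs were summed per library and class and tested with edgeR, with library as a term. Sums from fewer than 10 cells were left out, which removed the 4 selected cells of the library labelled E125 and the CD3 sums of E85 and of that library. Genes of any class rule were not called. Against CD3 lymphocytes, 10 of 6247 features were higher (0.16%) and 18 lower (0.288%) at an adjusted p under 0.05. Against VPREB1 cells 18 were higher (0.288%) and 5 lower (0.08%). Against macrophages 145 were higher (2.32%) and 233 lower (3.73%). The split depended on the scaling. Without the TMM factors (edgeR's correction for composition) it was 3 higher and 0 lower, 34 and 5, and 260 and 167, with medians over all features of 0.80, 0.32 and 0.45 on the log2 scale in place of 0.26, -0.01 and 0.08. With the size factors of DESeq2 it was 41 and 101, 20 and 30, and 102 and 199.

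The CD3 side of its comparison is a single sum of 22 cells at E105, so its spread between libraries is borrowed from the other classes. AKAP12 stood at 574 and 786 CPM in the selected cells and had no UMI in the CD3 lymphocytes, at least 43.9-fold higher (adjusted p 0.0315). KLF2 stood at 163 and 301 CPM, at least 16.8-fold higher than none (adjusted p 0.0483). AKR1B1, an aldo-keto reductase, was at 2149 and 2186 CPM against 71.6, a log2 difference of 4.47 (SE 0.71, adjusted p 0.0483). SWAP70, which acts in B cell activation, was at 248 and 191 CPM and at least 10.7-fold higher. The lower genes with a symbol included NUCB2, ACTG1 and the ribosomal protein genes RPL12, RPL8 and RPL32, whose reads can be shared with near-identical copies. ACTG1 was at 4804 and 5144 CPM against 8860, a log2 difference of -1.37 (SE 0.21). With edgeR no gene of the 11 lists on B cell functions and the cell cycle was called here, although 847 of the features had an unadjusted p under 0.05 and DESeq2 called 142.

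Against VPREB1 cells the higher genes were not those of B cells. DAZL, an RNA-binding protein of germ cells, stood at 309 and 205 CPM in the selected cells and at 1.58, 0 and 0 CPM in the VPREB1 cells of E85, E105 and the library labelled E125, a log2 difference of 7.43 (SE 0.70, adjusted p 0.00847). SMC1B, a cohesin subunit of meiosis, and DMRT1, a factor of the testis, were among the others, with STK31, TKTL1, ELAVL2, PAGE4, ZNF280C and PCSK1N. The 5 selected cells with 10 or more germ list UMIs hold 37.7% of the UMIs. They carried 19 and 34 of the 55 DAZL UMIs at E85. At E105 they carried 4, 11 and 15 of its 30. Nearly all DAZL UMIs thus lay in these 5 cells, but DAZL is on the germ list that picked them, which fixes part of this. Without the 13 other-type cells DMRT1, which is on the Sertoli list used to leave cells out, fell from 72 and 92 UMIs to 1 and 1. ELAVL2 fell from 78 and 70 to 1 and 0. The part of the 5 cells in the other values was not tested on its own. Without the 13 other-type cells none of these 9 genes had enough counts to be tested. The lower genes were DEPP1, a FOXO target, at 5.62 and 13.7 CPM against 314 and 305 at those stages (log2 difference -5.22, SE 0.66, adjusted p 0.0205), C1R, a complement protease, and PECAM1, an adhesion protein. ENSCHIG00000008825 was at 129 and 260 CPM against 5260, 5457 and 366 (log2 difference -5.12, SE 0.43, adjusted p 0.00847).

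Against macrophages some B lineage lists lay above and others below all features. Of the B cell transcription factors, 4 of 14 tested were higher, TCF3, ETS1, FOXO1 and AFF3, beside 2.32% of all features. None were lower, and the median log2 difference was 1.69 over the list against 0.08 over all features. Of 19 receptor signalling genes only FCRLA was higher and none lower, and the list median was -1.31 with 4 genes above 0. FCRLA (73.1 and 88.8 CPM) and RAG1 (50.6 and 103 CPM) had no UMI in any macrophage sum and were at least 19.3-fold and 17.8-fold higher (adjusted p 0.0137 and 0.0232). Other genes with high folds here were PCSK1N, MYL4, IGFBP2, HSPB8, CCDC73, HSPA4L, RBM46, SALL4, ELAVL2 and TEX9. The germ list genes DAZL and MAEL and the Sertoli list gene DMRT1 were higher as well. Nearly all DAZL UMIs lay in the selected cells with germ cell genes, so this comparison also holds the RNA of those cells. Of the antigen presentation list 4 of 8 were lower, HLA-DRA, CD74, CD86 and CTSS, beside 3.73% of all features. The list median was -2.88. HLA-DRA was at 253 and 301 CPM against 1723 and 2242 CPM in the macrophages of E85 and E105 (log2 difference -3.53, SE 0.59, adjusted p 0.0154). IRF7 and IFI6, genes of the interferon response, were lower, as were PTPRC and LAPTM5 among 9 mature B cell genes. Among genes with a symbol the lowest were CXCL9, a chemokine, at 5.62 and 0 CPM against 4060, 6066 and 124, MS4A7 and SPP1, a secreted phosphoprotein. MS4A7 is a relative of MS4A1 and had no UMI in the selected cells, at least 31.3-fold lower.

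Leaving out cells with genes of another type changed what could be seen. The selected cells fell to 33 and 28, VPREB1 cells to 95, 62 and 8 and macrophages to 100, 128 and 60, so the VPREB1 sum of the library labelled E125 no longer entered. The number of features tested fell to 4701. Against CD3 lymphocytes 199 were then higher (4.23%) and 281 lower (5.98%), against VPREB1 cells 176 (3.74%) and 266 (5.66%), and against macrophages 320 (6.81%) and 530 (11.3%). There were 2 residual degrees of freedom, and edgeR's prior degrees of freedom were infinite, against 5.27 with all cells. DESeq2 on the same sums called 212, 132 and 297, of which 209, 128 and 296 were also edgeR calls. Called by both tools were 2.02% higher and 2.43% lower against CD3 lymphocytes, 1.57% and 1.15% against VPREB1 cells and 2.85% and 3.45% against macrophages. The genes named next passed in both unless said otherwise.

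Against VPREB1 cells the selected cells were then higher in several genes of antigen handling and of later B cells. Genes outside the lists were also higher, SAMHD1 by a log2 difference of 4.77, PAK1 by 4.17, PLBD1 by 3.47, CXCL10 by 3.44 and JUNB by 3.36. SAMHD1 had 34 UMIs at E85 and 1 at E105. AIF1 (3.47) and the dendritic list gene CLEC9A (4.07) passed in edgeR only. IFI30 was at 767 and 351 CPM against 25.2 and 46.6, a log2 difference of 4.07 (SE 0.32, adjusted p 8.24e-34 with edgeR and 1.96e-09 with DESeq2). KLF2 was at 321 and 703 CPM against 34.1 and 46.6, a log2 difference of 3.47 (SE 0.34, adjusted p 1.37e-08 with DESeq2). BANK1 was at 137 and 176 CPM against 12.6 and 24.8, a log2 difference of 3.06 (SE 0.53, adjusted p 0.00134 with DESeq2). HLA-DRA and CD40 were higher by log2 differences of 1.88 (SE 0.26) and 2.15 (SE 0.45). Of 10 antigen presentation genes tested, 3 were higher in both tools and 0 lower, and of 18 receptor signalling genes 2 were higher, BANK1 and PTPN6, beside 1.57% of all features. ISG15 and IFIT1, genes of the interferon response, were also higher, 2 of 7, as was the survival gene MCL1, 1 of 8 mature B cell genes. In the division by MS4A1 above, IFI30, CD40, BANK1 and PTPN6 lay mostly in the cells with MS4A1.

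DNA replication genes were lower than in VPREB1 cells. UHRF1, which keeps DNA methylation through replication, was at 91.6 and 17.6 CPM against 943 and 795, a log2 difference of -3.87 (SE 0.37, adjusted p 2.11e-23 with edgeR and 0.000307 with DESeq2). MCM5, of the replicative helicase, had a log2 difference of -2.62 (SE 0.46, adjusted p 0.0138 with DESeq2). HMGB1, a chromatin protein, had a log2 difference of -2.64 (SE 0.17, adjusted p 1.70e-50 with DESeq2). Of 11 G1/S genes tested 7 were lower in edgeR and 2 in both tools, beside 5.66% and 1.15% of all features. Of 13 G2/M genes 7 were lower in edgeR and none in both, TOP2A with a log2 difference of -2.44 and an adjusted p of 0.173 in DESeq2. TOP2A was found in 2 of 33 selected cells at E85 and 0 of 28 at E105, so the G2/M list rests on few cells. In the secretory list HSP90B1 and FKBP11 were lower, 2 of 7, in both tools.

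Several B lineage genes were not distinguishable from the VPREB1 cells. BTK had a log2 difference of -0.05 (SE 0.24, adjusted p 0.944), RAG1 of 1.04 (SE 0.49, adjusted p 0.194) and TCF3 of 0.56 (SE 0.29, adjusted p 0.257) with edgeR. CXCR4 had 0.44 (SE 0.20), LTB 0.47 (SE 0.19) and FCRLA -0.42 (SE 0.41), and none of the 3 passed in either tool. IL7R was lower in edgeR by -0.89 (SE 0.29, adjusted p 0.0286) but not in DESeq2 (adjusted p 0.624). These misses do not show equal levels.

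**Figure D4:**
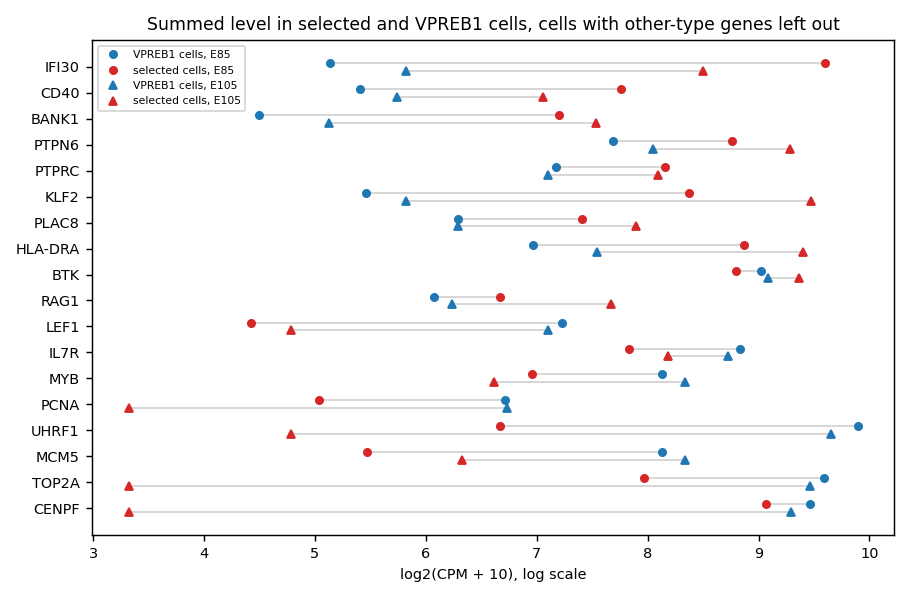
Summed level, as log2(CPM + 10), of genes in the selected cells (red) and the VPREB1 cells (blue) at E85 (circles) and E105 (triangles), without cells that hold genes of another type. IFI30, KLF2 and BANK1 are to the right in the selected cells in both libraries, UHRF1 and MCM5 to the left, and the BTK points lie close together.

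Against CD3 lymphocytes without the other-type cells, receptor and antigen presentation genes passed. BTK was at 435 and 650 CPM and had no UMI in the CD3 lymphocytes, at least 36.3-fold higher (adjusted p 4.41e-16 with edgeR and 0.000716 with DESeq2). INPP5D, PTPN6 and LYN were the other receptor genes higher in both tools, 4 of 18 with BTK, beside 2.02% of all features. All 5 antigen presentation genes that edgeR called of 10, IFI30, HLA-DOB, HLA-DRA, CD74 and CD40, passed in DESeq2 as well. HLA-DRA was at least 37.3-fold higher. TCF3 and MEF2C passed among 14 factors, CXCR4 among 9 homing genes and DERL3 among 7 secretory genes. PTPRC and LAPTM5 were lower. CTSW, a protease of cytotoxic cells, was at 0 in the selected cells, but it is on a list used to leave cells out. CD3 lymphocytes were exempt from that list, so the choice of cells fixed part of this difference. With all selected cells CTSW had 1 UMI at E85 and 39 at E105, and 97.4% of those at E105 lay in 1 cell.

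Against macrophages without the other-type cells, 6 of 14 B cell factors were higher in both tools, MYB, TCF3, ETS1, FOXO1, TCF4 and AFF3, beside 2.85% of all features. BTK was higher by a log2 difference of 1.64 (SE 0.28, adjusted p 1.63e-07 with edgeR and 0.000388 with DESeq2), and FCRLA was the other receptor gene of 18 to pass in both. LTB was higher by 6.30 (SE 0.34). RAG1 and IL7R passed as higher among 8 precursor genes. Of 5 fetal type genes LIN28B was higher and PLAC8 lower, by -2.08 (SE 0.30), in both tools. The germ list gene ZP3 was also higher in both tools, with 3 UMIs in the selected cells of each of E85 and E105. IFI30, HLA-DRA, CD74 and CTSS were lower, 4 of 10 beside 3.45% of all features, with HLA-DRA at -2.18 (SE 0.20) and CD74 at -1.72 (SE 0.31). The BTK difference was not called with the other-type cells included, and its sign turned when the E85 or the E105 library was left out there (-0.22 and -0.38). The library labelled E125 enters these comparisons through macrophages and VPREB1 cells, and without it 822, 1251 and 1638 features were called against CD3 lymphocytes, VPREB1 cells and macrophages.

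Between E85 and E105 the selected cells could be compared only as 1 library against 1. Ratios of CPM carry exact binomial intervals of counting error, and there is no replicate check and no test. JUN, an early response factor, had 16 UMIs in 12 of 38 cells at E85 and 110 in 28 of 36 at E105, a ratio of 8.35 (4.92 to 15.1). The same ratio in the other kept cells was 3.55. STK17A, a kinase, had 8 UMIs in 5 cells and 46 in 21 cells, a ratio of 6.98 (3.26 to 17.1), against 2.97 in the other kept cells. Without the 13 other-type cells the ratios were 13.0 for JUN (6.92 to 26.9) and 9.20 for STK17A (3.54 to 30.4). With JCHAIN left out of the rule, which leaves 15 and 6 cells, the log2 ratio of JUN was 2.02 in place of 3.06, and that of STK17A was 3.82 in place of 2.80. ITM2B had a ratio of 6.83, near the 5.50 of the other kept cells.

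Lower at E105 were SAMHD1, PVRIG and IFI30. SAMHD1, an enzyme that breaks down nucleotides, had 44 UMIs in 13 cells at E85 and 5 in 2 cells at E105, a ratio of 0.138 (0.0427 to 0.347), against 1.19 in the other kept cells, and 0.0451 (0.00111 to 0.269) without the other-type cells. PVRIG, an inhibitory receptor of lymphocytes, had 20 UMIs in 11 cells at E85 and none at E105, where the interval of the ratio reaches up to 0.246. IFI30 had 103 UMIs in 19 cells and 26 in 15, a ratio of 0.307 (0.191 to 0.475), and 0.458 (0.263 to 0.764) without the other-type cells. In the other kept cells the ratio of IFI30 was 1.80. With JCHAIN left out of the rule the log2 ratios were -0.86 for SAMHD1 in place of -2.86 and -0.35 for IFI30 in place of -1.71, and as a mean over cells IFI30 had -1.06. AIF1 had a ratio of 0.329, from 3 cells at E85 and 1 at E105.

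Most other genes that the naming rule gave rest on few cells. Of the UMIs at E85, 1 cell gave 65.8% for CENPF, 51.1% for TOP2A and 90.9% for C1QA. Of the CTSW UMIs at E105, 97.4% came from 1 cell. STMN2, XPA, NENF, CALD1, PTN and TMEM147 had ratios of 3.32 to 14.6 over all selected cells, but without the other-type cells only 1 to 7 UMIs were left at E105. CKAP2, NDC80 and MSH3 had ratios of 0.166, 0.182 and 0.293. MSH3 was found in 18 cells at E85 and 6 at E105, and its ratio without the other-type cells was 0.361 (0.0883 to 1.11). BTK had 44 and 43 UMIs, with a log2 ratio of 0.25 and an interval of -0.39 to 0.89, and the sign turned with a rule sum of at least 3 (-0.18).

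**Figure D5:**
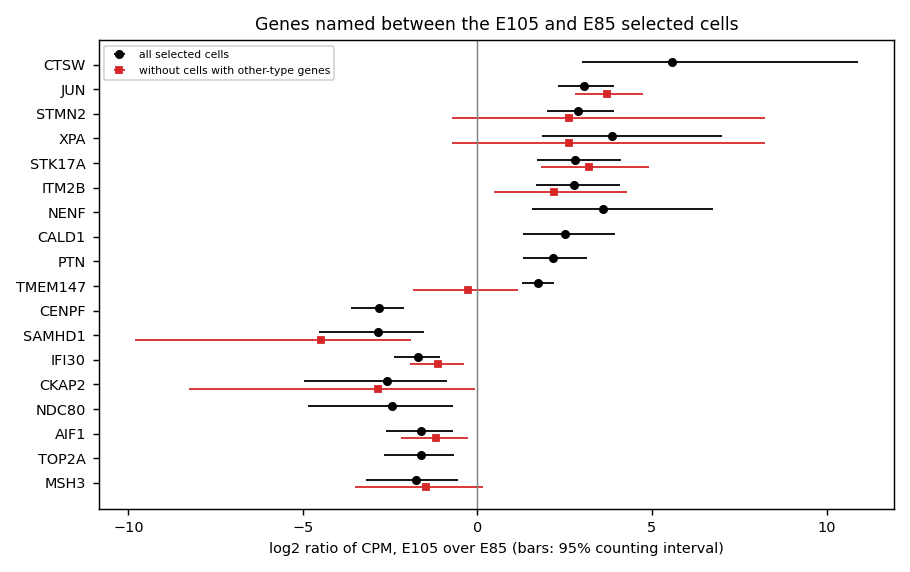
Log2 ratio of CPM, E105 over E85, for the genes named between the stages, in all selected cells (black) and without cells that hold genes of another type (red), with bars for the 95% counting interval. Genes without a UMI in 1 library are not drawn. JUN and STK17A stay above 0 and SAMHD1 and IFI30 below 0 in both.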

How the data were processed

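The deposited values, used unchanged, are filtered matrices of raw UMI counts for 3 droplet libraries, 1 at each stage. Cell Ranger made them, and the authors' version is listed as 3.1 in the submitters' processing notes but as 6.0.0 per the file headers. No genome build or annotation is named in the sources used here. Of 27271 features 16616 had a symbol, and 246 of 295 listed genes were found.

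Cells were selected by the rule in the text. CD3 lymphocytes had at least 2 UMIs over CD3E, CD3D and CD3G with the rule genes and VPREB1 at 0. Macrophages had at least 5 UMIs over CSF1R, CD163, MRC1, C1QA, C1QB and C1QC with at least 2 of them found and the same genes at 0. VPREB1 cells and macrophages had fewer than 2 CD3 UMIs, and all classes fewer than 5 of AMH. Groups are the labelled stages. UMIs were summed per library and class and compared by edgeR 4.0.16 quasi-likelihood tests with library as a term, TMM factors and Benjamini-Hochberg adjustment over all features, in 1 fit of 4 classes (R 4.3.3, Python 3.11.15). DESeq2 1.42.0, no TMM factors, no count filter, no library term, 2 classes alone, a rule sum of at least 3, other UMI and mitochondrial limits, doublet removal and each library left out were alternatives. Stages had no test. Intervals cover counting error only, and a count of 0 was given a floor of 3 counts in folds. Cells were thinned to 1190 UMIs for shares. Doublets were scored with Scrublet in scanpy 1.11.5 at an expected rate of 6% and were not removed, except in an alternative without the top 6% of scores.

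Genes were named by rule. These were the rule genes and BTK, up to 6 genes per list by UMIs with any called members, and up to 12 genes per direction by fold among calls with at least 20 UMIs that moved alike in each library. Between stages they were up to 10 genes per direction with at least 20 UMIs, ranked by how far the nearer interval bound lay from 1, without ribosomal protein, mitochondrial and haemoglobin genes. At most 2 features without a symbol were named in each direction. Genes of the division by MS4A1 were chosen after their values were seen. The selected cells, lists and tests were chosen with earlier results of these data known. Of the other lists of cell types, dendritic genes (not counted as another type) reached 10 UMIs in 2 selected cells and T cell genes in 1, and endothelial, erythroid and granulocyte or mast cell genes in 0. Some genes of the lists are not reported here.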

Additional observations from a re-analysis of the deposited data

How the results depend on the processing

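The share of selected cells moved most with depth and with JCHAIN. At a minimum of 2000 UMIs it was 0.401% at E85 (20 cells) and 0.272% at E105 (15 cells). With JCHAIN left out of the rule it was 0.235% (15 cells), 0.0842% (6 cells) and 0.0137% (1 cell). Counts of called features moved under many settings. Against CD3 lymphocytes, 28 calls became 142 with DESeq2, 3 without TMM, 339 without the count filter, 0 without the library term (728 at an unadjusted p under 0.05), 0 with a rule sum of at least 3 (550), 480 without other-type cells and 212 with DESeq2 there. Leaving out 1 library gave 1 (without E85) to 822 (without E125). Against VPREB1 cells, 23 calls became 50, 39, 366, 12, 1, 442 and 132 in the same order, and 1225 with the 2 classes alone. Leaving out 1 library gave 0 (without E85, 206 at an unadjusted p under 0.05), 3 (without E105) and 1251 (without E125). Against macrophages, 378 calls became 947 without the filter, 202 without the library term, 109 with a rule sum of at least 3, 850 without other-type cells and 1439 with the 2 classes alone, and leaving out 1 library gave 17 (without E105), 18 (without E85) and 1638 (without E125). They stayed within 1.5 times with DESeq2 (301, or 297 without other-type cells), without TMM (427) and without the top doublet scores (412). In the edgeR fits without E125, with 2 classes alone, without the filter and without other-type cells, the prior degrees of freedom were infinite. The cause of the other changes was not tested. Signs turned for CD40 against VPREB1 cells without E85 (log2 difference -0.036, and up to 1.84 without E105), for BTK against macrophages without E85 (-0.22) and without E105 (-0.38, and up to 0.583 without E125), and for the stage log2 ratios of CALD1 (-0.02865) and PTN (-2.35) without the top doublet scores and of TMEM147 with JCHAIN left out (-3.36) and without other-type cells (-0.28). The uncalled stage ratio of BTK turned to -0.18 with a rule sum of at least 3. With JCHAIN left out those of JUN, SAMHD1 and IFI30 moved to 2.02, -0.86 and -0.35. The comparison with CD3 lymphocytes could not be fitted with 2 classes alone or without E105. The E125 selected cells entered no fit. No paired analysis of the stages was possible because they share only replicate number 1. The class comparisons had library as a term. Small counts per cell limit the shares.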
